A study of Mus musculus with 14 samples.

Results

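The genes described here are the serpins, the apolipoproteins and a set of proteins that the liver is known to secrete into plasma. They were taken by symbol: every serpin of clades a to i, every apolipoprotein with an Apo symbol of letters a to h, and 16 named genes (Alb, Afp, Ttr, Trf, Fga, Fgb, Fgg, Ahsg, Ambp, Rbp4, Hpx, Hp, F2, F7, F9 and F10). The rule gave 67 of 21582 probes on the array, for 61 of the 15094 genes named by probes with 1 symbol: 35 probes of 32 serpin genes, 13 probes of 13 apolipoprotein genes and 19 probes of the other 16 genes. The rule reads symbols and uses no measured value.

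The study measured total RNA from C57Bl6 mouse fetuses on 14 two-colour arrays. The mothers of 7 alcohol-fed samples had ethanol on gestational days 15 to 18, at a level of 180 to 200 mg/dl. Those of 7 pair-fed samples received maltose dextrin (maltose dextrose in other labels) in its place. Fetuses were delivered by caesarean section on gestational day 19. The second channel of every array held the same reference, a pool of RNA from 7 animals with free access to food and water, which is thus the only untreated control and counts as 1 control sample without a spread of its own. The exposure lasts 4 days by the protocol text and 5 by the sample titles, and a further label calls the reference a weight matched control. Which organ was taken is not given in the sources, and neither is the litter of a sample. A p-value thus covers the spread among these samples only, and that spread could be technical.

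Serpins are inhibitors that trap a protease by changing shape when it cuts their exposed loop. Clade a holds secreted members made mainly by the liver, such as the alpha-1-antitrypsins and the carriers of steroid hormones, whereas clade b members lack a classical signal peptide and act mostly inside cells of the skin, blood and other tissues. Apolipoproteins wrap and steer lipid particles in blood. In the fetus, liver and yolk sac are the known sources of most of these plasma proteins, with alpha-fetoprotein as the main fetal counterpart of albumin.

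Every value below is the log2 ratio of a sample to the reference, after each array was centred on its median. That the ratio is sample over reference is likely, because the labels list the sample as the first channel, but it is not stated. If it ran the other way, every sign would be exchanged. No array had its dyes swapped, so a dye effect of a probe was not separated from a difference from the reference. A ratio says nothing about how abundant one RNA is beside another, and in RNA from many cells, fewer cells of a type and less RNA per cell cannot be told apart. Errors are standard errors from limma, p-values are adjusted over all 20876 probes tested, and a probe was called when its adjusted p was under 0.05.

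The arrays correlated with one another at 0.263 to 0.698 (median 0.456, across probes). Placeholder values, which were set to missing, made up 2.57% to 14.6% of the probes of an array, with the highest shares on pair-fed arrays 6 (14.6%) and 7 (9.51%) and alcohol-fed array 6 (7.91%). Of the 67 member probes, 65 were tested, having at least 4 values in each group, and 51 of them (78.5%, against 70.3% of all probes tested) had values on all 14 arrays. The untested probes were the only one for Fgb, the fibrinogen beta chain, and 1 of 4 for Trf, the iron carrier transferrin. The 4 alcohol-fed values of Fgb were -4.70 to 1.83 and its 3 pair-fed values -3.24 to -0.07.

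In alcohol-fed fetuses 17 of 65 member probes differed from the reference, 4 higher and 13 lower. The share was 26.2%, beside 23.5% of all probes tested (8.02% higher and 15.5% lower). In pair-fed fetuses 19 of 65 differed (29.2%, beside 21.3% of all), 5 higher and 14 lower, where 7.86% of all probes were higher and 13.5% lower. The median member sat near 0 on the log2 scale, at 0.0048 in alcohol-fed and 0.017 in pair-fed fetuses, beside 0.0067 and -0.031 over all probes. Quantile normalization moved the median of all probes up by 0.13 and 0.11 and gave 8 higher and 11 lower members in alcohol-fed fetuses. Higher members were thus 42.1% of the member calls, against 23.5% of the 17 member calls without it. Over all probes, alcohol-fed calls rose from 4913 to 5941. With the 3 arrays richest in placeholders left out together, alcohol-fed fetuses had 5 higher and 11 lower members, and pair-fed fetuses 5 and 14. Over all probes, 4612 and 3762 were then called, beside 4913 and 4450 with every array. The group means of all tested members, plotted by role, show most genes close to the reference and a few far below it.

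**Figure D1:**
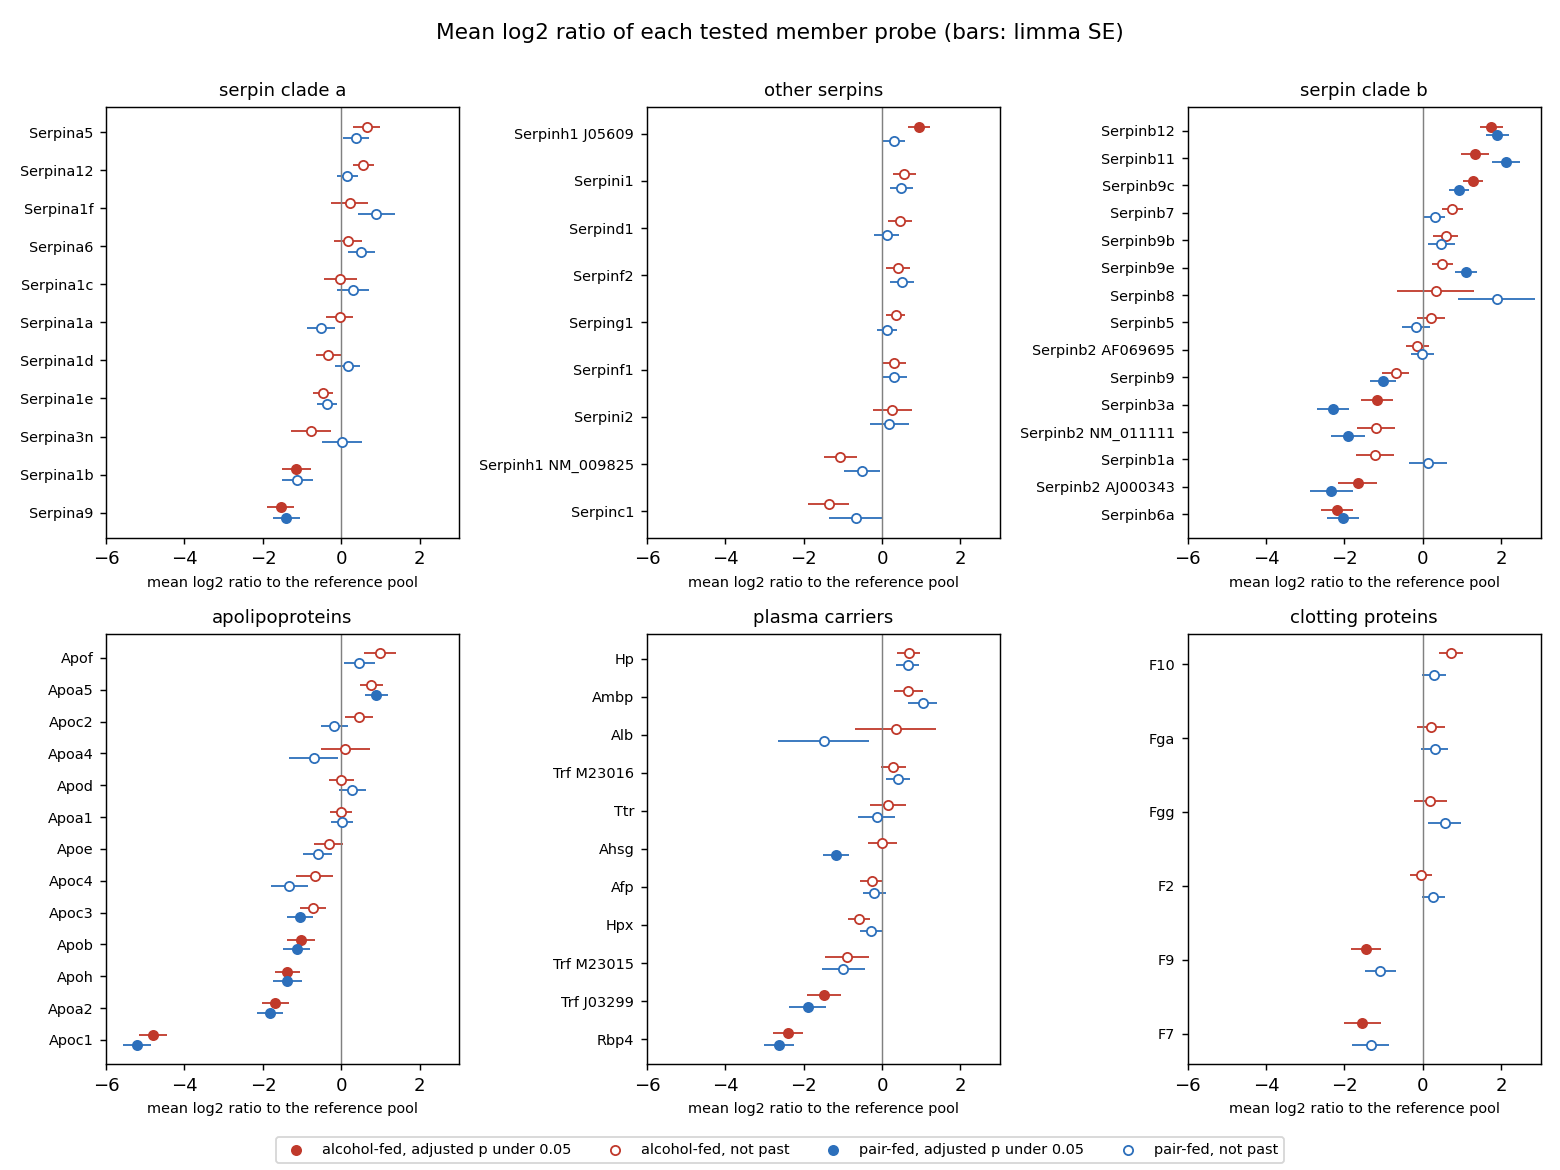
Mean log2 ratio to the reference of the 65 member probes tested, grouped by role, with alcohol-fed and pair-fed means as separate symbols (7 arrays each, fewer where a value was missing) and bars for the limma standard error. Apoc1 lies lowest, near -5 in both groups, and most members lie within 1 of the reference.

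Among the apolipoproteins, 4 of 13 were lower and 0 higher in alcohol-fed fetuses, and 5 were lower and 1 higher in pair-fed fetuses. The called shares were 30.8% and 46.2%, beside 23.5% and 21.3% of all probes tested. Apoc1, a small apolipoprotein that coats chylomicrons, VLDL and HDL, was the lowest member. Its alcohol-fed values ran from -5.80 over a median of -4.65 to -4.0, and its pair-fed values from -7.61 over -5.20 to -4.18. All 14 values thus lay at least 4 below the reference, and the groups overlapped. The mean was -4.81 ± 0.35 in alcohol-fed fetuses (28.0-fold lower, adjusted p = 1.84e-08) and -5.21 ± 0.35 in pair-fed fetuses (37.0-fold lower, adjusted p = 5.93e-09). Over all 20876 probes this ranked 57 and 38 from the lowest. The gene is on chromosome 7.

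Apoa2, a main protein of HDL, ran from -3.30 over a median of -1.65 to 0.02 in alcohol-fed and from -2.67 over -1.88 to -0.76 in pair-fed fetuses. Thus 13 of the 14 arrays lay below 0. Its means were -1.68 ± 0.33 (adjusted p = 0.00182) and -1.82 ± 0.33 (0.00101), or 3.21- and 3.53-fold lower. Apoh, which binds phospholipid and is also known as beta-2-glycoprotein I, was below 0 on every array with a value (7 and 5), at means of -1.38 ± 0.32 (adjusted p = 0.0066) and -1.38 ± 0.38 (0.0177). The pair-fed call of Apoh ended without pair-fed array 5 (adjusted p = 0.0691) and with values as deposited, with placeholders kept and with a variance trend (up to 0.0649).

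Apob, the structural protein of LDL and chylomicrons, was closer to the threshold. Its values ran from -2.50 over -0.87 to 0.07 in alcohol-fed and from -2.13 over -1.16 to 0.45 in pair-fed fetuses, so that 6 of 7 arrays of each group were below 0. The means were -1.03 ± 0.35 (adjusted p = 0.0419) and -1.14 ± 0.35 (0.0287). The first call ended without any 1 of alcohol-fed arrays 1, 4, 5 and 6 and the second without pair-fed array 1, 4 or 5 (adjusted p up to 0.129 and 0.0866). The first also ended with values as deposited, quantile normalization, array weights, a variance trend or 3 arrays left out (up to 0.107), and the second with values as deposited or the group fitted alone (up to 0.0775).

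Apoc3, which slows the clearance of triglyceride-rich particles, and Apoa5, which speeds their lipolysis, passed the threshold in pair-fed and not in alcohol-fed fetuses, in opposite directions. Apoc3 was at -1.05 ± 0.33 (adjusted p = 0.0321) beside -0.71 ± 0.33 in alcohol-fed fetuses (0.123). Apoa5 was at 0.89 ± 0.30 (adjusted p = 0.0409) beside 0.76 ± 0.30 (0.0697). Neither gene passed the test of the difference between the groups, described below. The Apoc3 call ended without pair-fed array 1, 2, 5 or 6 (adjusted p up to 0.0926) and with values as deposited, quantile normalization, the group fitted alone or 3 arrays left out (up to 0.0904). The Apoa5 call ended without any 1 of pair-fed arrays 2 to 7 (up to 0.116), with a variance trend and with the group fitted alone, and in alcohol-fed fetuses Apoa5 passed without alcohol-fed array 5 (0.0371) and with quantile normalization. The other 7 apolipoproteins were called in neither group. Of these, Apoa1, the other main HDL protein, was at -0.01 ± 0.28 and 0.02 ± 0.28, and Apoe, the ligand that takes remnant particles to their receptors, at -0.32 ± 0.37 and -0.60 ± 0.37. Apoc4, Apof, Apoc2, Apoa4 and Apod had means between -1.33 and 0.99.

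The plot of single arrays shows how these values spread within a group.

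**Figure D2:**
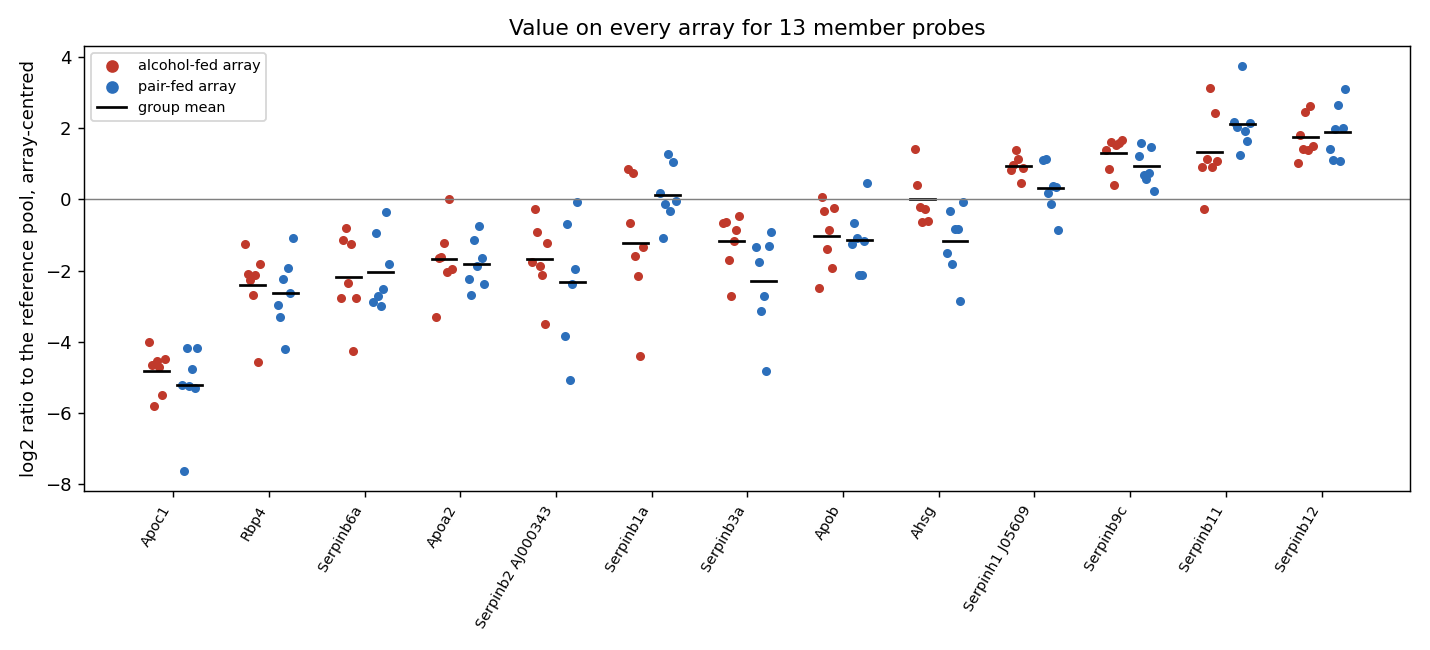
Log2 ratio to the reference on each array (points, by group) for 13 member probes, with the group mean as a bar: the 5 lowest alcohol-fed means among called members, the 5 highest (4 called higher, and Apob, called lower), and the 3 smallest p between the groups. The alcohol-fed and pair-fed points overlap for each of the 13 probes.

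Among the carriers, inhibitors and acute-phase proteins of plasma, 2 of 11 tested probes were lower in alcohol-fed and 3 in pair-fed fetuses, with 0 higher in either. The called shares were 18.2% and 27.3%, beside 23.5% and 21.3% of all probes tested. Rbp4, which carries retinol from the liver to tissues, was the lowest of the 11. Its alcohol-fed values ran from -4.58 over -2.12 to -1.24 and its pair-fed values from -4.20 over -2.62 to -1.10. Every array lay at least 1.10 below the reference. The means were -2.40 ± 0.38 (5.29-fold lower, adjusted p = 0.000223) and -2.62 ± 0.38 (6.17-fold lower, 9.78e-05).

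Ttr, transthyretin, which holds the retinol carrier in plasma and binds thyroid hormone, was called in neither group. It stood at 0.16 ± 0.46 in alcohol-fed and -0.14 ± 0.46 in pair-fed fetuses. The difference between these 2 partners was not tested. Afp, alpha-fetoprotein, was at -0.26 ± 0.29 and -0.20 ± 0.29, with values from -0.92 to 0.37 and from -1.32 to 1.06. Alb, albumin, had values on 5 alcohol-fed and 4 pair-fed arrays only, from -2.16 to 4.43 and from -5.74 to 2.52. Its means of 0.35 ± 1.03 and -1.49 ± 1.15 carry the widest errors of any member tested. Hp and Hpx, which bind free haemoglobin and haem, were at 0.68 ± 0.29 and 0.65 ± 0.29 and at -0.60 ± 0.28 and -0.27 ± 0.28, and Ambp, the precursor of alpha-1-microglobulin and bikunin, at 0.67 ± 0.38 and 1.04 ± 0.38. None of these means was called.

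Ahsg, fetuin-A, a fetal plasma glycoprotein that holds calcium phosphate in solution, differed from the reference in pair-fed fetuses. Its pair-fed values ran from -2.85 over -0.83 to -0.06, all below 0, and its 6 alcohol-fed values from -0.64 over -0.25 to 1.42. The ranges overlapped. The pair-fed mean was -1.17 ± 0.34 (adjusted p = 0.0226) and the alcohol-fed mean 0.01 ± 0.37 (0.987). The pair-fed call ended without pair-fed array 1, 3 or 6 (adjusted p up to 0.0636), and with values as deposited or the group fitted alone (up to 0.0691).

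Of the clotting proteins, 2 of 6 tested were lower in alcohol-fed fetuses (33.3%, beside a called share of 23.5% over all probes). In pair-fed fetuses 0 differed, beside 21.3% of all probes. F9, factor IX, whose loss causes haemophilia B, was below 0 on all 7 alcohol-fed arrays and on 6 of 7 pair-fed arrays. Its means were -1.45 ± 0.39 (adjusted p = 0.0138) and -1.09 ± 0.39 (0.0551). F7, factor VII, which starts clotting with tissue factor, was below 0 on all 6 alcohol-fed arrays with a value and on 4 of 6 pair-fed arrays, at -1.54 ± 0.47 (adjusted p = 0.0265) and -1.34 ± 0.47 (0.052). The alcohol-fed F7 call ended without alcohol-fed array 1, 4, 6 or 7 (adjusted p up to 0.0796) and with the 3 arrays richest in placeholders left out. In pair-fed fetuses F7 passed without alcohol-fed array 6 or pair-fed array 5 or 7 (down to 0.0203), and F9 without pair-fed array 3 (0.00886). The fibrinogen chains Fga and Fgg, prothrombin (F2) and factor X (F10) had means between -0.05 and 0.71 and were called in neither group.

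Among the 11 serpins of clade a, all on chromosome 12, 2 were lower in alcohol-fed and 1 in pair-fed fetuses. The called shares were 18.2% and 9.09%, beside 23.5% and 21.3% of all probes tested. Serpina9 was below 0 on all 14 arrays, from -2.24 over -1.75 to -0.79 and from -3.63 over -0.98 to -0.45. Its means were -1.55 ± 0.35 (adjusted p = 0.00446) and -1.40 ± 0.35 (0.00921). Human SERPINA9 is known from germinal-centre B cells rather than from liver.

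The alpha-1-antitrypsins, the main plasma inhibitors of neutrophil elastase, gave unequal results. Serpina1b was at -1.15 ± 0.37 in alcohol-fed (adjusted p = 0.0326) and -1.12 ± 0.40 in pair-fed fetuses (0.0533). Serpina1a, Serpina1c, Serpina1d and Serpina1e lay between -0.52 and 0.30 and were not called. These genes are near-identical copies, so a probe may bind RNA of another copy, and their values are uncertain for that reason. The alcohol-fed Serpina1b call ended without alcohol-fed array 1, 2, 3 or 5 (adjusted p up to 0.109), and in pair-fed fetuses Serpina1b passed without alcohol-fed array 3, 4 or 6 or pair-fed array 6 (down to 0.039). The other members, Serpina3n (an acute-phase inhibitor), Serpina5 (the protein C inhibitor), Serpina6 (the corticosteroid carrier), Serpina12 and Serpina1f, had means from -0.77 to 0.89, none called.

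Of the 9 probes of serpins outside clades a and b, 1 was called, in alcohol-fed fetuses (11.1%, beside 23.5% of all probes). It was a probe for Serpinh1, the collagen chaperone Hsp47 of the endoplasmic reticulum, and its 6 alcohol-fed values ran from 0.45 over 0.92 to 1.40. All 6 lay above the reference. The mean was 0.94 ± 0.29 (adjusted p = 0.0284), beside 0.30 ± 0.27 in pair-fed fetuses (0.44). The call ended without alcohol-fed array 1, 2, 3, 4 or 7 (adjusted p up to 0.0818). The second probe for Serpinh1 had the opposite sign, at -1.07 ± 0.42 and -0.52 ± 0.45 (adjusted p = 0.0727 and 0.432), so no direction is given for the gene.

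Serpinc1, antithrombin, the heparin-dependent inhibitor of thrombin, was below 0 on 6 of 7 alcohol-fed arrays and was not called (-1.36 ± 0.52, adjusted p = 0.0697). Without alcohol-fed array 1, the exception at 2.06, it passed (adjusted p = 0.00625). On the 4 pair-fed arrays with a value it was at -0.68 ± 0.69. Serpind1 (heparin cofactor II), Serpinf1 (pigment epithelium-derived factor), Serpinf2 (the plasmin inhibitor), Serping1 (the C1 inhibitor), Serpini1 (neuroserpin) and Serpini2 had means between 0.12 and 0.57 in both groups and were not called.

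Clade b held calls in both directions: 3 of 15 probes higher and 3 lower in alcohol-fed fetuses, and 4 higher and 5 lower in pair-fed fetuses. The called shares were 40% and 60%, beside 23.5% and 21.3% of all probes tested. Serpinb12, found in epithelia, was above 0 on all 14 arrays, from 1.03 over 1.49 to 2.62 and from 1.07 over 1.96 to 3.11. Its means were 1.74 ± 0.30 (3.34-fold higher, adjusted p = 0.000465) and 1.90 ± 0.30 (3.74-fold, 0.000209). Serpinb11 ran from -0.28 over 1.07 to 3.13 in alcohol-fed and from 1.25 over 2.03 to 3.74 in pair-fed fetuses. Its means were 1.32 ± 0.36 (adjusted p = 0.0146) and 2.13 ± 0.36 (0.000497). The alcohol-fed call of Serpinb11 ended without alcohol-fed array 4 (adjusted p = 0.0545) and with a variance trend (0.0532).

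Serpinb9c, one of several mouse genes related to the granzyme B inhibitor Serpinb9, was also above 0 on all 14 arrays. Its values ran from 0.41 over 1.51 to 1.67 and from 0.24 over 0.73 to 1.59, with means of 1.29 ± 0.26 (adjusted p = 0.00175) and 0.93 ± 0.26 (0.0157). Serpinb9e was above 0 on all 7 pair-fed arrays (1.09 ± 0.28, adjusted p = 0.0103) and at 0.50 ± 0.28 in alcohol-fed fetuses (0.193). Serpinb9 itself went the other way in pair-fed fetuses, below 0 on all 7 arrays (-1.02 ± 0.33, adjusted p = 0.0349), and was at -0.69 ± 0.35 in alcohol-fed fetuses (0.155). The pair-fed Serpinb9 call ended without pair-fed array 1, 4, 5 or 7 (adjusted p up to 0.102), and with values as deposited, the group fitted alone or 3 arrays left out (up to 0.12). The pair-fed call of Serpinb9c ended with a variance trend and with the group fitted alone (up to 0.0614), and that of Serpinb9e with the 3 arrays left out (0.0814). Serpinb9b was at 0.58 ± 0.32 and 0.47 ± 0.35, not called.

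Serpinb6a, a widely expressed inhibitor of intracellular proteases, was the lowest of the clade in alcohol-fed fetuses. Its values ran from -4.25 over -2.34 to -0.80 and from -2.98 over -2.52 to -0.35, below 0 on all 14 arrays. The means were -2.19 ± 0.40 (4.56-fold lower, adjusted p = 0.000987) and -2.03 ± 0.40 (4.09-fold lower, 0.00191).

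Serpinb3a, the mouse relative of the squamous cell carcinoma antigens of skin, was below 0 on all 14 arrays as well. It ran from -2.72 over -0.87 to -0.46 in alcohol-fed and from -4.83 over -1.77 to -0.92 in pair-fed fetuses. The means were -1.17 ± 0.40 (adjusted p = 0.0431) and -2.29 ± 0.40 (0.000687). The alcohol-fed call of Serpinb3a ended without any 1 of alcohol-fed arrays 1 to 6 (adjusted p up to 0.134), and with values as deposited, quantile normalization or a variance trend (up to 0.0874).

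Serpinb2, plasminogen activator inhibitor 2 of skin, placenta and macrophages, had 3 probes. One ran from -3.50 over -1.77 to -0.26 and from -5.07 over -2.17 to -0.06, with means of -1.66 ± 0.50 (adjusted p = 0.0243) and -2.33 ± 0.54 (0.00626). The next was at -1.20 ± 0.47 (adjusted p = 0.0758) and -1.91 ± 0.44 (0.00621), below 0 on every array with a value. The last was at -0.14 ± 0.29 and -0.01 ± 0.29, so 2 of the 3 probes put the gene below the reference in pair-fed fetuses and the third put it at the reference. In alcohol-fed fetuses the call of the first probe ended without alcohol-fed array 4, 5 or 6 (adjusted p up to 0.0752) and with values as deposited (0.0511), and the second probe passed without pair-fed array 4 (0.0293).

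Serpinb1a, which inhibits neutrophil proteases, was at -1.23 ± 0.48 in alcohol-fed (adjusted p = 0.0702) and 0.13 ± 0.48 in pair-fed fetuses (0.869). It passed in alcohol-fed fetuses without alcohol-fed array 1 or 3 (adjusted p down to 0.0323), and without alcohol-fed array 6 its mean was -0.70 (adjusted p = 0.232). Serpinb5 (maspin) and Serpinb7 had means between -0.18 and 0.75, not called. Serpinb8 had 1 extreme value, 10.2 on pair-fed array 6, and a pair-fed mean of 1.88 ± 0.98 (adjusted p = 0.176).

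Transferrin also had several probes, and they too disagreed. One was at -1.49 ± 0.43 in alcohol-fed (adjusted p = 0.0218) and -1.90 ± 0.47 in pair-fed fetuses (0.00949), and ran from -2.44 over -1.68 to -0.63 and from -4.23 over -2.06 to 0.22. The other tested probes were at -0.89 ± 0.56 and -0.99 ± 0.56, and at 0.29 ± 0.31 and 0.40 ± 0.31, none called. The alcohol-fed call ended without alcohol-fed array 4 (adjusted p = 0.0635) and the pair-fed call with the group fitted alone (0.0512). The place of these probes in the transcripts was not used here.

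**Figure D3:**
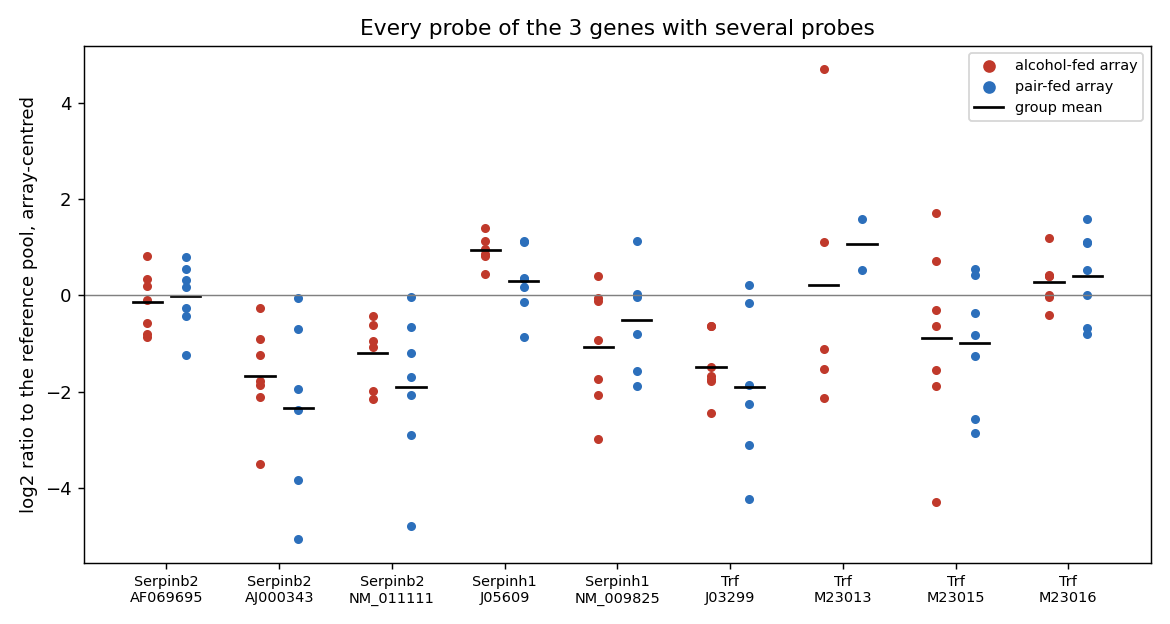
Log2 ratio to the reference on each array (points, by group), with group means, for the probes of the 3 member genes that have more than 1 probe: Serpinb2, Serpinh1 and Trf. The pair-fed means of the 3 Serpinb2 probes lie at -2.33, -1.91 and -0.01.

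Many members lie next to each other in the genome, in clusters that arose by duplication. In RefSeq's order on chromosome 7, Apoc2, Apoc4, Apoc1 and Apoe follow one another, and 1 of these 4, Apoc1, was called in each group, with alcohol-fed means from -4.81 to 0.46. In the cluster of Apoa1, Apoc3, Apoa4 and Apoa5 on chromosome 9, 0 of 4 were called in alcohol-fed fetuses and 2 in pair-fed fetuses, Apoa5 higher and Apoc3 lower. The clade b serpins with a member probe on the array lie in a group of 7 genes on chromosome 1 (9 probes) and a group of 6 on chromosome 13. On chromosome 1, 2 probes were higher and 2 lower in alcohol-fed fetuses and 2 higher and 3 lower in pair-fed fetuses. On chromosome 13, 1 was higher and 1 lower in alcohol-fed fetuses, and 2 were higher and 2 lower in pair-fed fetuses. Beside the counts of each of these clusters, the called share over all probes was 23.5% in alcohol-fed and 21.3% in pair-fed fetuses. With so few genes per cluster, the counts are a description only. Of the 11 clade a genes of chromosome 12, 2 were lower in alcohol-fed fetuses (18.2%, beside a called share of 23.5% over all probes). In pair-fed fetuses 1 was lower (9.09%, beside 21.3%). Alb and Afp on chromosome 5 and the tested fibrinogen genes, Fga and Fgg, on chromosome 3 were not called.

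**Figure D4:**
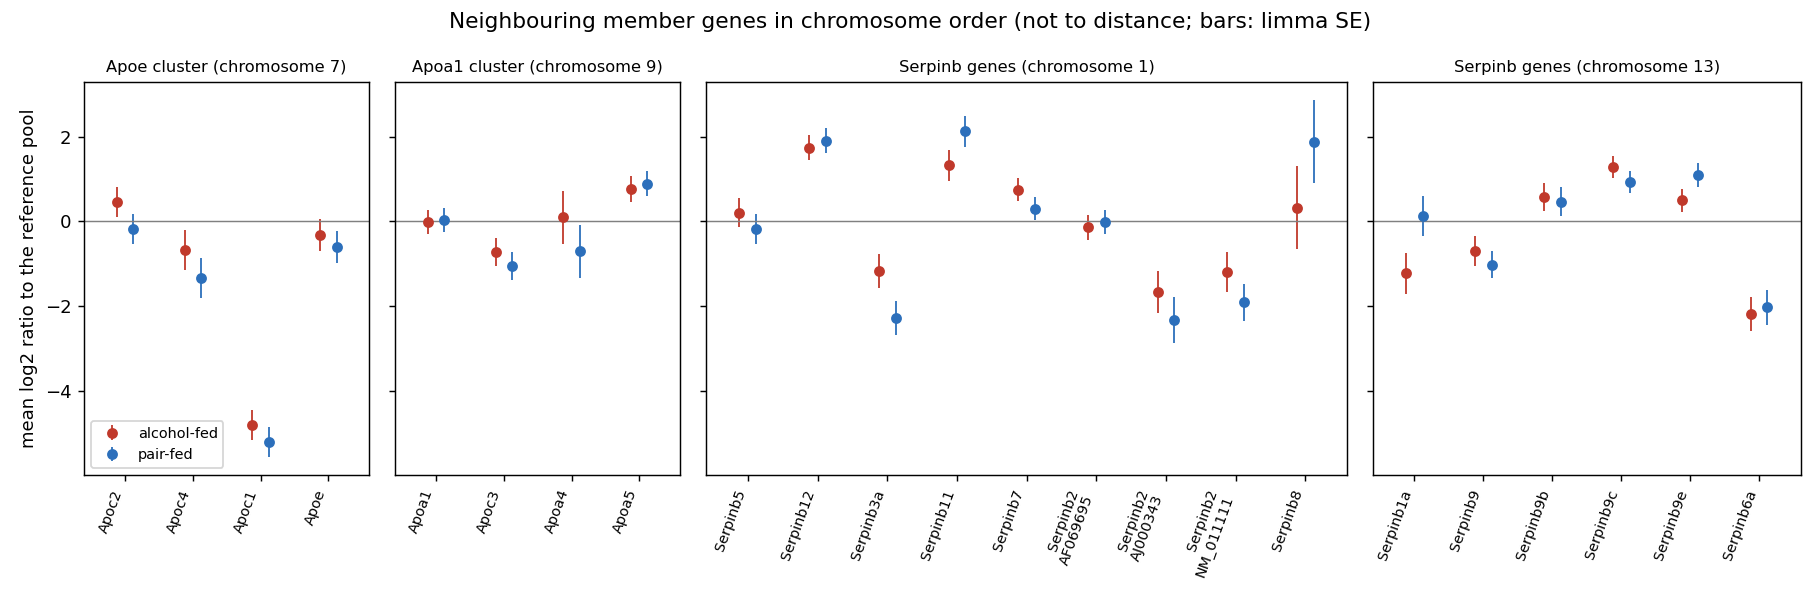
Mean log2 ratio to the reference, with limma standard errors, of member probes in their order along the chromosome within gene clusters, for alcohol-fed and pair-fed fetuses. Apoc1 stands alone below its 3 neighbours, and clade b serpins on chromosomes 1 and 13 lie on both sides of 0.

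RefSeq promoter windows on GRCm38.p6, from 250 bases before to 50 bases after an annotated start, were found for 51 of the 61 genes (60 windows). Both strands were searched for GTTAAT, the half-site letters of the liver factor HNF1, and for TATAAA, the letters of a TATA box. A match counted at any place in the window, so TATAAA need not lie where a TATA box works. The motifs do not overlap one another in the windows shown. GTTAAT was in 14 of 60 windows (23.3%), beside 7.10% of all 32851 windows. By role it was in 5 of 9 windows of clade a, 3 of 7 of clotting proteins, 2 of 7 of carriers, 2 of 14 of apolipoproteins, 1 of 7 of the other serpins and 1 of 16 of clade b. Serpina1a to Serpina1e, near-identical copies, have 1 clade a window each, so these windows are not separate observations. The count over all 60 windows shares this limit. TATAAA was in 14 of 60 (23.3%), beside 13.6% of all. The letters CAAAGTCC, as bound by the liver factor HNF4, were in 1 of 60 (1.67%), beside 1.42%. Such a match is a description of the letters and shows no binding. The windows of 4 plasma protein genes are printed with the matched letters in capitals, because 2 of the genes were lower than the reference in both groups (Rbp4 and Apoa2) and the other 2, Afp and Alb, are the main fetal and adult plasma proteins and were called in neither. Rbp4 and Apoa2 each have a second window, which holds none of these letters. The Rbp4 window is chr19:38124762-38125061 on the minus strand, with TATAAA beginning 28 bases before the start. The Apoa2 window is chr1:171224804-171225103 on the plus strand, with TATAAA beginning 212 bases before the start. The Afp window, chr5:90490464-90490763 on the plus strand, has GTTAAT beginning 105 and TATAAA beginning 7 bases before the start. The Alb window, chr5:90460620-90460919 on the plus strand, has GTTAAT beginning 32 bases before the start.
Rbp4: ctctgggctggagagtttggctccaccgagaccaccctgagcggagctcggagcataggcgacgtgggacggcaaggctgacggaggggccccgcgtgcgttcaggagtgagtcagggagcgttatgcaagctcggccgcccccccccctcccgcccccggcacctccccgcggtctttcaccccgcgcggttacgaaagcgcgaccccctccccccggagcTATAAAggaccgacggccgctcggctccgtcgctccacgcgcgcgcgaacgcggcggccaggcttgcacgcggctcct
Apoa2: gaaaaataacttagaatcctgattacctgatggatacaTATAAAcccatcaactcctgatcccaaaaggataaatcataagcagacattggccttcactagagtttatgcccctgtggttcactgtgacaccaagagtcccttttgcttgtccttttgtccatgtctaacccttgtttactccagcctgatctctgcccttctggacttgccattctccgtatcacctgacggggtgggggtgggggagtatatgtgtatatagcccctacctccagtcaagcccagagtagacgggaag
Afp: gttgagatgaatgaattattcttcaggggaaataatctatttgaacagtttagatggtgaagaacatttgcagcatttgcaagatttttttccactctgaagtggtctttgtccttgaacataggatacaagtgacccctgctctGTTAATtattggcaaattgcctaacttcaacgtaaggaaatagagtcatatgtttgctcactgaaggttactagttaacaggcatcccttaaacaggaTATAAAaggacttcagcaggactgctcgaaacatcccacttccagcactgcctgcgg
Alb: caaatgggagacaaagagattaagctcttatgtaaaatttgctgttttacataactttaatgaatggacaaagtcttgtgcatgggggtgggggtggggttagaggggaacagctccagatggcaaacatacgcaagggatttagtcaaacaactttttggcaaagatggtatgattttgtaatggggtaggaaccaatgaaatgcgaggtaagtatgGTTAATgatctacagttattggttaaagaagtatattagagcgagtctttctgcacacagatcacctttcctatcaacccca

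Genes of the same pathways that are not members were counted per gene, a gene counting when any of its probes was called. Beside them, 8.02% of all probes were higher and 15.5% lower in alcohol-fed fetuses, and 7.86% and 13.5% in pair-fed fetuses. Those shares are per probe, so a gene with several probes had more chances of a call. Of 28 liver enzymes and transcription factors with a tested probe, 2 were higher and 5 lower in alcohol-fed fetuses and 2 and 2 in pair-fed fetuses. Of 22 other clotting and fibrinolysis genes, 0 were higher and 5 lower, and 0 and 4. Tfpi, the inhibitor of the tissue factor pathway, was at -1.88 ± 0.33 (adjusted p = 0.00068) and -2.67 ± 0.30 (7.75e-06). Of 18 complement genes, 1 was higher and 3 lower, and 1 and 4. Of 25 acute-phase and other secreted liver genes, 3 were higher and 5 lower, and 1 and 5, with Apcs, serum amyloid P, at -3.58 ± 0.39 (adjusted p = 2.62e-06) and -3.05 ± 0.39 (2.14e-05). Crp, C-reactive protein, was higher in alcohol-fed fetuses (1.13 ± 0.23, adjusted p = 0.00235) and at 0.48 ± 0.23 in pair-fed fetuses (0.149).

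Lipoprotein assembly genes, lipases and receptors numbered 18, of which 0 were higher, 2 lower and 1 called both ways by different probes in alcohol-fed fetuses, and 1 was higher and 4 lower in pair-fed fetuses. Both probes of Lrp2, megalin, an endocytic receptor that takes up retinol-binding protein and many other ligands, were lower (-2.65 ± 0.48 and -1.89 ± 0.36 in alcohol-fed, -1.48 ± 0.48 and -1.82 ± 0.38 in pair-fed fetuses). The largest adjusted p of these 4 was 0.0368. Of 21 proteases and receptors that serpins act on, 2 were higher and 5 lower, and 3 and 5. Gzmb, granzyme B, the target of Serpinb9, was at -2.47 ± 0.30 (adjusted p = 1.10e-05) and -1.85 ± 0.30 (0.000298). None of these lists had a gene called between the groups.

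Markers of cell types that could carry these RNAs were read in the same way, as the organ is unknown. Over all probes tested, 8.02% were higher and 15.5% lower in alcohol-fed fetuses, and 7.86% and 13.5% in pair-fed fetuses. The marker counts are per gene, whereas those shares are per probe. Skeletal muscle, for one, had 15 genes on 29 probes, so a gene could be called by any of several probes. Hepatocyte markers that are not members were 0 higher and 4 lower of 14 in alcohol-fed and 1 higher and 1 lower in pair-fed fetuses. Visceral endoderm markers of the yolk sac were 0 higher and 4 lower of 10, and 0 and 1. Erythroid markers were 0 higher and 4 lower of 8, and 0 and 5. Epidermal markers, which bear on clade b, were 0 higher and 3 lower of 11, and 0 and 1, and macrophage and neutrophil markers 0 higher and 3 lower of 7, and 0 and 4. Trophoblast markers were 4 higher and 2 lower of 9, and 2 and 0. Skeletal muscle markers were 2 higher and 8 lower of 15, and 1 higher, 7 lower and 1 both ways. Of 8 lung markers, 0 were higher, 4 lower and 1 both ways in each group. Of 12 neuron markers, 0 were higher and 1 lower in alcohol-fed fetuses, and 2 were higher, 1 lower and 1 both ways in pair-fed fetuses. The part of these cell types in the values of the members was not tested.

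The comparison of alcohol-fed with pair-fed fetuses asks what ethanol exposure changed beyond the pair-feeding. For the members it gave no call: 0 of 65 passed in limma, as did 0% of all 20876 probes, and the smallest adjusted p of a member was 0.9996. At an unadjusted p under 0.05, 1 member passed, beside 4.22% of all probes. The 2 groups overlapped for 65 of 65 members, and 0.115% of all probes had groups that did not overlap. The groups were compared with the same pool, so their values against it are not independent of each other, whereas the pool cancels in the difference between them. Of the differences, 33 were above 0 and 32 below.

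Ahsg, the one member with an unadjusted p under 0.05, differed by 1.18 ± 0.50 (alcohol-fed minus pair-fed, 95% interval 0.12 to 2.24, unadjusted p = 0.031). Serpinb1a differed by -1.35 ± 0.68 (-2.78 to 0.07, unadjusted p = 0.0607), or by -0.83 ± 0.55 without alcohol-fed array 6, and Serpinb3a by 1.11 ± 0.57 (-0.08 to 2.31, 0.0665). The Serpinb1a values ran from -4.39 over -1.35 to 0.84 in alcohol-fed and from -1.07 over -0.05 to 1.27 in pair-fed fetuses. After Serpinh1 (0.64 ± 0.40 on its first probe), the next were Serpinb11 (-0.80 ± 0.51), Serpinb9e (-0.59 ± 0.39), Apoc2 (0.63 ± 0.50) and Alb (1.84 ± 1.55), with unadjusted p from 0.127 to 0.256.

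The intervals state what these arrays could resolve. Their median half-width over the members was 1.05 on the log2 scale (0.74 to 3.35), beside 1.09 over all probes. The interval lay within 2-fold either way for 8 of 65 members (12.3%, beside 8.84% of all probes) and within 4-fold for 53 (81.5%, beside 76.8%). For Apoc1 the difference was 0.40 ± 0.50 (-0.65 to 1.45), for Rbp4 0.22 ± 0.54 (-0.90 to 1.35), for Afp -0.06 ± 0.42 (-0.94 to 0.81) and for Apoa1 -0.03 ± 0.40 (-0.88 to 0.81). A 4-fold difference of these 4 genes lies outside their intervals. The widest interval was that of Alb, -1.51 to 5.19, and the intervals of 64 of the 65 members included 0.

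**Figure D5:**
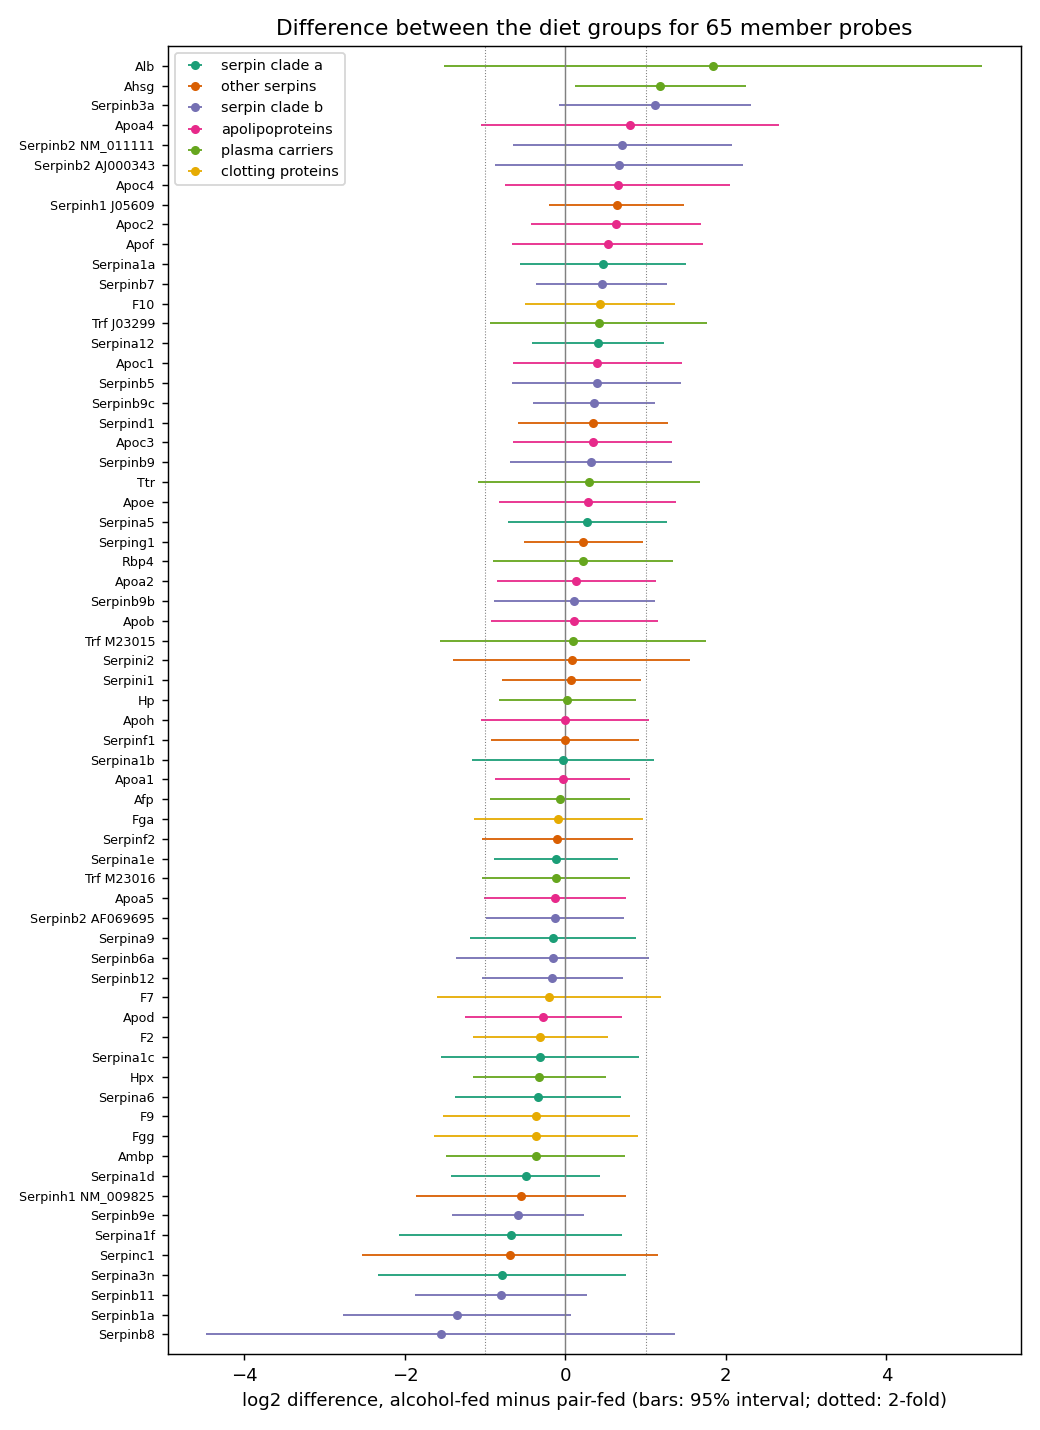
Difference in mean log2 ratio, alcohol-fed minus pair-fed, with 95% limma intervals for the 65 member probes tested, ordered by the difference. The interval of Ahsg is the one that does not reach 0, before adjustment for the number of probes tested.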

How the data were processed

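RNA of 14 samples was compared on two-colour arrays with 1 pooled reference. The authors deposited 1 log2 ratio of the channels per probe and array. That these values are log2 ratios was inferred from their range and from the 2 channels. RNA was labelled with a Cy3/Cy5 kit after reverse transcription, per the labels' protocols, with samples in Cy5 and the pool in Cy3. How the arrays were scanned and normalized is not given in the sources used. No source states the scale, centring or direction of the deposited values. Brightness was not used here, so signal over background is unknown, and the number of arrays limits precision.

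Exact values of 0 and values at the table's highest value (16.61), which recur on the arrays, were set to missing. Each array was then centred on its median (-0.62 to 0.68 before centring). Probes needed 4 values in the alcohol-fed and 4 in the pair-fed group to be tested (20876 did, 706 did not). Tests were two-sided and came from 1 fit of all 14 arrays with lmFit and eBayes of limma 3.58.1, under R 4.3.3, with Benjamini-Hochberg adjusted p under 0.05. Each group's mean was tested against 0, since the pool is the untreated control, and the groups against each other. An error combines a moderated variance of both groups with the number of values, so leaving out an array of one group can change a call in the other. The fit was first tested on simulated data.

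Of the 21582 probes, 16635 had 1 symbol in the platform annotation, 113 several and 4834 none. The 61 member genes matched RefSeq by gene number, and 0 symbols changed. Text names every member called in either group, the 8 smallest p between the groups, a fixed set of main plasma genes and, per list of other genes, at most 2. The symbol rule for the members, the gene lists and the tests were chosen with earlier results of these data known. Other settings were values as deposited, quantile and scale normalization, placeholders kept, other minimum numbers of arrays, array weights, robust and trended variances, a replicate block, each group fitted alone, probes of a gene averaged and each array left out.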

Additional observations from a re-analysis of the deposited data

Results flagged for a closer look

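In 72 sets of 4 to 7 arrays, 1 group of 1 named probe each, a single array was set apart from the rest by Dixon's test in 7, where chance alone gives about 3.6 (1 in 20). Serpinc1 (antithrombin) stood at 2.06 on alcohol-fed array 1, with the others from -3.17 to -1.24. Serpinb11 stood at 3.74 on pair-fed array 4, above the others at 1.25 to 2.16. Serpinb9 was at -2.39 on alcohol-fed array 4 (others -0.77 to 0.04). Apoc1 was at -7.61 on pair-fed array 2 (others -5.29 to -4.18), so that the gene was far below the reference with or without that array. Rbp4 was at -4.58 on alcohol-fed array 6 (others -2.68 to -1.24), and Fgg, the fibrinogen gamma chain, at -3.34 on the same array (others -0.27 to 1.57). Ttr was at -3.39 on pair-fed array 1 (others -0.56 to 1.53).

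Alcohol-fed array 6 was low for the plasma proteins as a group. Over the 30 tested probes of apolipoproteins, carriers and clotting proteins, its median deviation from the group means was -0.62, whereas the other 6 alcohol-fed arrays lay between 0.05 and 0.26. Those means include array 6 itself, so its low values raise the deviations of the other arrays. With no mean subtracted, its median ratio was -0.69, and those of the other alcohol-fed arrays were -0.40 to -0.04. The deviations of pair-fed arrays from their own group means ranged from -0.33 on array 1 to 0.36 on array 3. With no mean subtracted, pair-fed medians ran from -1.07 on array 6 to -0.11 on array 3, so pair-fed array 6 was lower still. Without alcohol-fed array 6, 9 members were lower and 5 higher in alcohol-fed fetuses. The counts were the same without alcohol-fed array 5, and were 8 lower and 2 higher without alcohol-fed array 4. Calls over all probes fell too, from 4913 with every array to 3958, 3968 and 3590 without alcohol-fed arrays 6, 5 and 4. Alcohol-fed array 6 also had 7.91% placeholders, and the part of that share in its deviation was not tested.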

How the results depend on the processing

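No call of a member reversed in any setting in which its probe was followed. Averaging the probes of a gene did not follow the single probes of Serpinb2, Serpinh1 and Trf. It gave 3 higher and 12 lower members in alcohol-fed fetuses, and 5 and 12 in pair-fed fetuses, beside 4563 and 4200 calls over the whole array. Between the groups, 0 members passed in each setting that compared them (the fits of 1 group alone do not). Of the 17 alcohol-fed calls, 9 held in each setting run for them (12 or 13) and with any 1 of the 14 arrays left out (Serpina9, Serpinb12, Serpinb6a, Serpinb9c, Apoa2, Apoc1, Apoh, Rbp4 and F9), as did 10 of the 19 pair-fed calls (11 to 13 settings: Serpina9, Serpinb11, Serpinb12, 2 probes of Serpinb2, Serpinb3a, Serpinb6a, Apoa2, Apoc1 and Rbp4). Higher calls in alcohol-fed fetuses, 4 in the report, were 8 with quantile normalization and 7 with array weights, and lower calls, 13, were 8 with only probes on all 14 arrays (51 members). Alcohol-fed calls over all probes, 4913 in the report, were 5941, 6255 and 3330 in these 3 settings. In pair-fed fetuses lower calls, 14, were 9 with values as deposited and 9 with the group fitted alone, and higher calls, 5, were 3 with the group fitted alone and 3 with a variance trend. Pair-fed calls over all probes, 4450 in the report, were 3908 as deposited, 2906 with the group fitted alone and 3809 with a variance trend. With 1 array left out, alcohol-fed calls ranged from 2 to 5 higher and 8 to 14 lower, lowest without alcohol-fed array 4 (2 higher, 8 lower), and pair-fed calls from 4 to 6 higher and 11 to 16 lower. Calls over all probes then ranged from 3590 to 5297 in alcohol-fed and from 3256 to 4891 in pair-fed fetuses. Values as deposited moved the median of all probes by 0.13 and 0.12. Leaving out 3 arrays rich in placeholders was chosen after seeing the data; it ended the alcohol-fed calls of Apob and F7 and the pair-fed calls of Serpinb9, Serpinb9e and Apoc3, while Serpina1b and F7 passed in pair-fed fetuses. The cause of these changes was not tested.

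The replicate numbers did not pair the samples: same-numbered arrays correlated in their deviations at -0.08 to 0.19. With the replicate number as a block, alcohol-fed calls were 3 higher and 12 lower and pair-fed calls 4 higher and 16 lower, with 0 between the groups. Over all probes, 4231 and 3978 were then called, beside 4913 and 4450 without the block. The block ended the alcohol-fed calls of Serpina1b, Serpinh1 and F7 and the pair-fed call of Apoa5, and F9 passed in pair-fed fetuses.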
